A study of Rattus norvegicus with 4 samples.

Results

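The core circadian clock was described here through 10 genes on a rat oligonucleotide array, namely Arntl, Clock, Per1, Per2, Per3, Cry1, Cry2, Nr1d1, Nr1d2 and Dbp. The genes were set down as a list, with earlier results of these data known, and their probes were found by the gene names in the array files, which hold 35658 distinct names in all. Per3 had 3 probes and the other genes had 1 probe each, which gave 12 probes. The arrays measured total RNA of small intestine freed of Peyer's patches from male Wistar rats, an outbred stock. Compost rats drank tap water holding 1% (v/v) compost extract, compost from aerobic fermentation diluted in water and held hot, for 12 weeks from 3 weeks of age, and control rats of the same sex, stock and age drank water alone. Each group had 2 rats with 1 array per rat, and the labels describe the samples as taken from individual animals. The hour of the day at which tissue was taken is not given in the sources used here, nor is the stretch of small intestine.

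The circadian clock is a feedback loop of transcription that runs in nearly every cell of the body. The proteins of Arntl (also called Bmal1) and Clock pair up and bind E-boxes in the DNA, where they switch on the Period genes Per1, Per2 and Per3, the Cryptochrome genes Cry1 and Cry2, the nuclear receptor genes Nr1d1 and Nr1d2 (REV-ERB alpha and beta) and Dbp, a transcription factor that passes the rhythm on to output genes. The PER and CRY proteins then block the Arntl and Clock pair, and the REV-ERB proteins repress Arntl through ROR elements. In peripheral tissues of rodents, the gut included, Arntl and most of the E-box driven genes therefore peak at opposite times of day, and Cry1 peaks later than the Per genes. The intestinal clock is set largely by the time of feeding.

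Promoter windows are shown for 3 members that held motif matches, Arntl from 1 branch of this loop and Per2 and Nr1d1 from the other. The values below compare these opposed branches. Matches were not general in them, since the windows of Clock, Per1, Per3, Nr1d2 and Dbp, from the same branches, held none. The windows come from RefSeq on the GRCr8 build, run 5′ to 3′ on the strand of the gene and hold 250 bases before and 50 after an annotated start of transcription. Capitals mark the matches to 4 motifs searched on both strands: the E-box CACGTG, the E-prime box CACGTT, the D-box TTATGNAA, which is bound by DBP and its relatives, and the ROR element, a motif of 10 letters that ends in GGTCA. Windows were found for 9 of the 10 genes, 11 windows in all, and none was found for Cry1.
Arntl (chr1:176766078-176766377, plus strand): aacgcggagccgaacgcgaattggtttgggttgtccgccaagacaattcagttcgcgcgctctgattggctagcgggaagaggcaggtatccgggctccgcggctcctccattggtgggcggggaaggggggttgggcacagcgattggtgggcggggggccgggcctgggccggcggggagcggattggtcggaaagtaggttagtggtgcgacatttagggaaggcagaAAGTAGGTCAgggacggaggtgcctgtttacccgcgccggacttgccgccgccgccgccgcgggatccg
Per2 (chr9:99496944-99497243, minus strand): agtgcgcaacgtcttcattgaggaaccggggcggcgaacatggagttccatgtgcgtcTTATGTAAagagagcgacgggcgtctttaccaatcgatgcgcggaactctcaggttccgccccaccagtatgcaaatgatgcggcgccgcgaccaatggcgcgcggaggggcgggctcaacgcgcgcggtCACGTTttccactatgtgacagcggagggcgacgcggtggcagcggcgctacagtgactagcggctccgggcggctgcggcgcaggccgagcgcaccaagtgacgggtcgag
Nr1d1, upstream start (chr10:84231763-84232062, minus strand): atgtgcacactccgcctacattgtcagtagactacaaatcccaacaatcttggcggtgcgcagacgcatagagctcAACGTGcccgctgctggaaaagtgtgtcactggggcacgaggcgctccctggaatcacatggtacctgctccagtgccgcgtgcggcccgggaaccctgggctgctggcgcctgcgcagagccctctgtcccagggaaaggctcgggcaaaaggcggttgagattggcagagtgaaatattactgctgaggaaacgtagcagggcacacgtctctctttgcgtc
Nr1d1, downstream start (chr10:84229405-84229704, minus strand): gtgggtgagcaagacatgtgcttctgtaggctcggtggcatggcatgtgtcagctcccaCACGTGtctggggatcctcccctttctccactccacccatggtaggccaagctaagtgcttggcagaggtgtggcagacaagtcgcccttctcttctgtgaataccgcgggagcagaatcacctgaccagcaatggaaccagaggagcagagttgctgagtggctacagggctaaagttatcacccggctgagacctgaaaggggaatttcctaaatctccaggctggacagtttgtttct
The Arntl window held a ROR element that began 19 bases before the start. The Per2 window held an E-prime box 62 bases before the start and a D-box 192 bases before it. In Nr1d1 the upstream window held an E-prime box 174 bases before the start and the downstream window an E-box 191 bases before the start. The window of Cry2 held an E-prime box, and the windows of Clock, Per1, Per3, Nr1d2 and Dbp held none of these letters. No matches overlapped each other. Of 33469 rat windows of the same length, 6.42% held the E-box, 4.83% the E-prime box, 3.66% the D-box and 0.852% the ROR element. A match is a description of the letters and was not tested for binding.

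Values below are log2 intensities scaled so that 0 is the 75th percentile of the gene probes of that array, which compares a gene between rats but not 1 gene with another. Signal was called well above background by the scanner software. Over all gene spots the share well above background was 71.0% and 66.5% in compost rats 1 and 2, against 68.3% and 70.7% in control rats 1 and 2. Across the 28417 probes kept, Pearson's r between any 2 arrays was 0.981 to 0.988, with probes that are no independent replicates. All 4 arrays lay on 1 slide. Of 8 absorptive enterocyte markers 6 were found on the array, all 6 well above background in every rat. Such signal is not specific to the tissue. Of 4 liver markers 2 had a kept probe, both well above background in every rat. Of 4 pancreas markers 2 had a kept probe, 1 of them well above background in every rat. Of the clock genes, 8 of 10 were well above background in all 4 rats, and the exceptions were Per3 and Cry2. Since whole tissue was measured, fewer cells of a type and less RNA per cell cannot be told apart.

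None of the 10 clock genes passed the test of compost against control (0 of 10 at adjusted p under 0.05 in limma), and 0% of the 28417 probes on the array passed it. At an unadjusted p under 0.05 there were 0 of the 10 genes and 3.21% of all probes. Of the 10 log2 differences 4 were positive and 6 negative, with a median of -0.25, against -0.02 over all probes. For every gene the adjusted p was 0.9997. In 8 of the 10 genes the groups overlapped, and in 2 they did not, against 27.9% of all probes. Both compost rats were below both control rats in 2 genes, Nr1d1 and Nr1d2, where 15.6% of all probes did so, and both lay above in 0 genes, against 12.3% of all probes. In each of the 10 genes, the larger of the 2 gaps between rats of the same group exceeded the difference between the group means. The share of all probes for which this held was not computed, so it cannot be called particular to the clock genes.

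Arntl and Clock encode the activating pair. Arntl stood at 2.16 and 2.28 in compost rats 1 and 2, against 2.33 and 1.97 in control rats 1 and 2. Both compost values lay between the control values, and the whole range over the 4 rats was 1.28-fold. The log2 difference was 0.07 ± 0.21 (SE of the limma model, 95% interval -0.48 to 0.63). Clock stood at -4.13 and -4.69 in the compost rats, against -4.30 and -4.29 in the control rats. The control rats nearly coincided, with 1 compost rat above them and 1 below. The log2 difference of Clock was -0.12 ± 0.25 (95% interval -0.78 to 0.54), and -0.06 with normexp background correction. Neither interval reaches a shift of 1 log2 unit in either direction.

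The Period genes encode the repressors that accumulate after the activating pair has acted. Per1 stood at -1.17 and -1.96 in compost rats 1 and 2, against -2.62 and -1.71 in control rats 1 and 2. Compost rat 1 was the highest and control rat 1 the lowest, 2.74-fold apart, while the other two rats lay between them and close together. The difference of Per1 was 0.60 ± 0.43 on the log2 scale (95% interval -0.54 to 1.74). Leaving out compost rat 1 gave 0.20 and leaving out compost rat 2 gave 1.00, and the value was 0.14 when control rat 1 was dropped and 1.06 when control rat 2 was. Per2 stood at -0.30 and -0.43 in the compost rats, against -0.72 and -0.31 in the control rats. Its lowest rat was again control rat 1, and the other three lay within a narrow band. The log2 difference of Per2 was 0.15 ± 0.22 (95% interval -0.44 to 0.73).

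Per3, the third Period gene, was near the detection limit. Its brightest probe, A_44_P196198, stood at -5.28 and -5.92 in compost rats 1 and 2, against -5.68 and -4.42 in control rats 1 and 2, and it was well above background in compost rat 1 and control rat 2 alone. The group difference was -0.56 ± 0.50 (95% interval -1.86 to 0.75), and it was -0.23 with another background correction (normexp). The 2 other probes of Per3 were not well above background in any rat and were not tested: A_43_P16143 stood at -6.55 and -6.48 in the compost rats, against -7.77 and -8.06 in the control rats, and A_44_P407318 at -8.02 and -7.41, against -7.47 and -7.81. These dim values have no usable order, and the 3 probes did not share a direction.

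The Cryptochrome genes encode the partners of the PER proteins in repression. Cry1 stood at 1.26 and 1.96 in compost rats 1 and 2, against 1.57 and 1.26 in control rats 1 and 2. Compost rat 2 was highest, control rat 1 came next, and the remaining rats, 1 of each group, were level. The log2 difference of Cry1 was 0.19 ± 0.30 (95% interval -0.61 to 0.99). Cry2 stood at -4.62 and -6.03 in the compost rats, against -4.71 and -4.28 in the control rats. Compost rat 2, in which the probe was not well above background, stood below the other three, by an amount that a value at background does not fix. The log2 difference of Cry2 was -0.82 ± 0.51 (95% interval -2.17 to 0.53). It was -0.12 without compost replicate 2, -1.53 without compost replicate 1 and -0.26 with normexp background correction, an alternative that damps dim signals by an added offset of 50.

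Nr1d1 and Nr1d2 encode the REV-ERB receptors that repress Arntl. Nr1d1 stood at -1.58 and -2.37 in compost rats 1 and 2, against -1.57 and -1.46 in control rats 1 and 2. Compost rat 2 alone was low, and compost rat 1 lay 0.0069 log2 units under the nearer control rat. The separation of the groups in Nr1d1 thus rests on a gap far smaller than the 0.79 between its compost rats or the 0.11 between its control rats. The gap between the groups was 0.078 with normexp background correction and 0.031 with quantile scaling. The difference of Nr1d1 between the group means was -0.46 ± 0.31 (95% interval -1.28 to 0.37), and it was -0.06 without compost replicate 2 and -0.85 without compost replicate 1. Nr1d2 stood at -3.72 and -3.72 in the compost rats, against -3.53 and -3.11 in the control rats. The compost rats were level and the nearer control rat lay 0.19 above them. The difference of Nr1d2 was -0.40 ± 0.22 (95% interval -0.98 to 0.18), with the smallest unadjusted p of the 10 genes (0.132 by limma, adjusted p = 0.9997), and it was -0.19 without control replicate 2, while leaving out control rat 1 gave -0.61.

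Dbp, the output factor of the loop, stood at 0.13 and -0.59 in compost rats 1 and 2, against -0.03 and 0.33 in control rats 1 and 2. Compost rat 2 was lowest and control rat 2 highest, 1.89-fold apart, with the remaining rats between them. The log2 difference of Dbp was -0.38 ± 0.31 (95% interval -1.21 to 0.45), and it was -0.02 without compost replicate 2 and -0.74 without compost replicate 1.

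**Figure D1:**
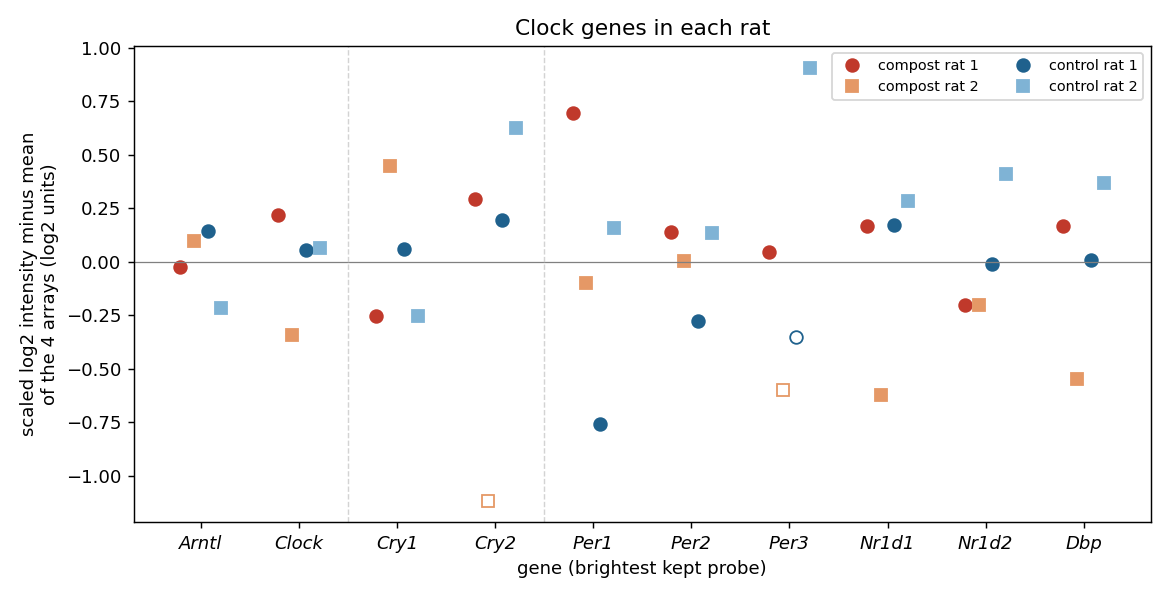
Scaled log2 intensity of each clock gene minus its mean over the 4 arrays (vertical axis, log2 units) by gene (horizontal axis), with 1 point per rat and open points where the probe was not well above background. Among the 8 genes well above background in every rat, compost rat 2 is the lowest point in 4, and compost and control points overlap in 8 of all 10.

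Between rats, the clock genes ranged by a median of 0.80 log2 units over the 4 arrays, against 0.50 over all probes kept. A range of at least 1 log2 unit was seen in 3 of the 10 genes, Per1, Per3 and Cry2, against 16.2% of all probes. Of the 8 genes well above background in every rat 1 had such a range, Per1, and the median range of the 8 was 0.66. With normexp background correction all 10 clock genes ranged less. The ranges of Cry2, Per3 and Clock were then 0.41, 0.48 and 0.14, and that of Per1 was 1.03. The median range over all probes was not computed with normexp, so the comparison of 0.80 with 0.50 holds for the main setting alone. Among the same 8 genes compost rat 2 was the lowest of the 4 rats in 4, Clock, Nr1d1, Nr1d2 and Dbp, where it was the lowest in 25.1% of all probes. In Nr1d2 it lay only 0.0011 under compost rat 1. Control rat 2 was the highest in 3 of the 8, Nr1d1, Nr1d2 and Dbp, against 20.4% of all probes. The array of compost rat 2 also had the smallest share of spots well above background, 66.5%, and its part in these values was not tested.

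To compare the opposed branches, each gene was centred on its mean over the 4 rats, and 6 E-box driven genes, Per1, Per2, Per3, Nr1d1, Nr1d2 and Dbp, were averaged, as were Arntl and Clock. Cry1 and Cry2, though also driven through E-boxes, were put in neither average, because Cry1 peaks later and the rhythm of Cry2 is weak. The E-box driven average was 0.17 and -0.34 log2 units in compost rats 1 and 2, against -0.20 and 0.38 in control rats 1 and 2. It was thus high in 1 rat and low in the other rat of each group. The gap between the rats of a group was 0.51 for compost and 0.58 for control, while the group means differed by -0.17. The average of Arntl and Clock was 0.10 and -0.12 in the compost rats, against 0.10 and -0.08 in the control rats, a range of 0.22. The E-box driven average minus that of Arntl and Clock was 0.07 and -0.22 in the compost rats, against -0.30 and 0.45 in the control rats. The group means of this balance differed by -0.15, less than the 0.75 between the 2 control rats, and by -0.08 with Per3, which was near the detection limit, left out. The direction of that difference turned with the rat left out: leaving out control replicate 2 gave 0.23 and leaving out control replicate 1 gave -0.53, while the value was -0.30 with compost replicate 1 left out and -0.01 with compost replicate 2 left out.

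**Figure D2:**
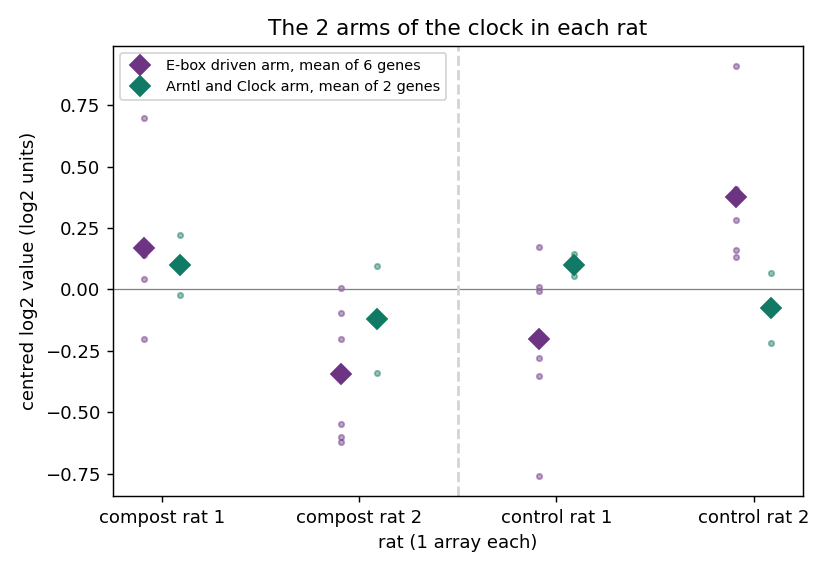
Centred log2 values (vertical axis, log2 units) in each rat (horizontal axis). Diamonds are the averages of the 6 E-box driven genes and of Arntl with Clock, and small points are single genes. The E-box driven average is lowest in compost rat 2 at -0.34 and highest in control rat 2 at 0.38.

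Gene by gene, Arntl had its 2 highest values in the rats where the E-box driven average had its 2 lowest, and Clock did not. From high to low, the E-box driven average ran control rat 2, compost rat 1, control rat 1, compost rat 2, and Arntl ran control rat 1, compost rat 2, compost rat 1, control rat 2. Cry1 had the same pair of rats on top as Arntl, compost rat 2 and control rat 1. These were also the lowest pair in 4 of the 6 E-box driven genes, Per1, Per2, Per3 and Dbp, though in both of these rats the probe of Per3 was not well above background. In Nr1d1 and Nr1d2 the lowest pair was instead both compost rats. Clock did not follow Arntl: compost rat 2 was its lowest rat and compost rat 1 its highest. The Clock probe was dim, however, and its range of 0.56 log2 units fell to 0.14 with normexp background correction, so its order is uncertain. The pair of rats was read off these same values, and the E-box driven average is made of the 6 genes set against it. Over all probes compost rat 2 was the lowest rat in 25.1% and control rat 1 in 24.0%, and the share with this lowest pair was not computed. With 4 rats these orders are a description without a test, and Arntl ranged over only 0.36 log2 units.

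Clock-associated regulators gave a wider view of the loop. Of 22 such genes 18 were found by name on the array and 15 had a probe kept, and none of the 15 passed the test (0 at adjusted p under 0.05, 1 at an unadjusted p under 0.05, against 3.21% of all probes). The differences were positive in 5 and negative in 10, with a median of -0.07. Both compost rats were above both control rats in 3 and below in 3, where 12.3% and 15.6% of all probes were. The lone gene with a low unadjusted p was Bhlhe41 (Dec2), which encodes a repressor that binds E-boxes and dampens the activating pair.

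Bhlhe41 stood at -0.29 and -0.64 in compost rats 1 and 2, against -1.70 and -1.48 in control rats 1 and 2. Both compost rats were above both control rats, and the difference was 1.13 ± 0.22 on the log2 scale (95% interval 0.55 to 1.71, unadjusted p = 0.0044 and adjusted p = 0.9997 by limma), that is 2.19-fold. It did not pass over all probes, and 3.21% of all probes had an unadjusted p under 0.05. The difference was 0.94 with normexp background correction, and 0.96 to 1.30 without 1 rat. A second probe of Bhlhe41 was well above background in control rat 2 alone and was not tested. Its near relative Bhlhe40 (Dec1), also a repressor at E-boxes, stood at -0.37 and -0.29 in the compost rats, against 0.19 and -0.62 in the control rats, with a difference of -0.11 ± 0.32.

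Npas2, which can stand in for Clock as the partner of Arntl, stood at -2.69 and -2.95 in compost rats 1 and 2, against -2.01 and -2.56 in control rats 1 and 2. Both compost rats were below both control rats, with a difference of -0.53 ± 0.26 (adjusted p = 0.9997 by limma). Tef, a relative of Dbp that binds the same D-box, stood at -3.80 and -4.20 in the compost rats, against -3.82 and -2.71 in the control rats. As in Dbp, compost rat 2 was lowest and control rat 2 highest, and the difference of Tef was -0.74 ± 0.42. Nfil3, which represses at the D-box and so opposes Dbp and Tef, stood at 1.17 and 1.25 in the compost rats, against 1.68 and 1.11 in the control rats. Control rat 1 was its highest rat and the difference was -0.19 ± 0.26. Cipc, which encodes an inhibitor of CLOCK, had a difference of -0.42 ± 0.25 with both compost rats below both control rats. Rora and Rorb, which encode activators at ROR elements, were not well above background in any rat.

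**Figure D3:**
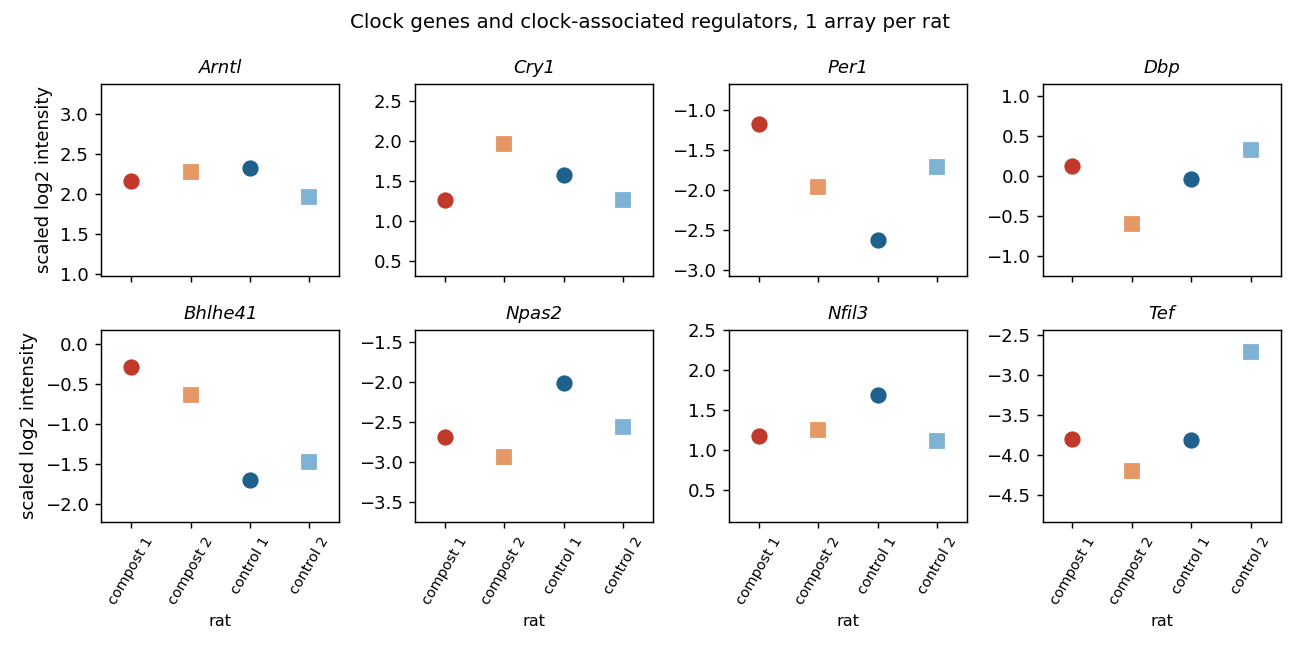
Scaled log2 intensity (vertical axis, each panel spanning the same number of log2 units) in each rat (horizontal axis) for 4 clock genes (top) and 4 clock-associated regulators (bottom). In Bhlhe41 both compost rats, at -0.29 and -0.64, lie above both control rats, at -1.70 and -1.48, and in Dbp and Tef control rat 2 is highest and compost rat 2 lowest.

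**Figure D4:**
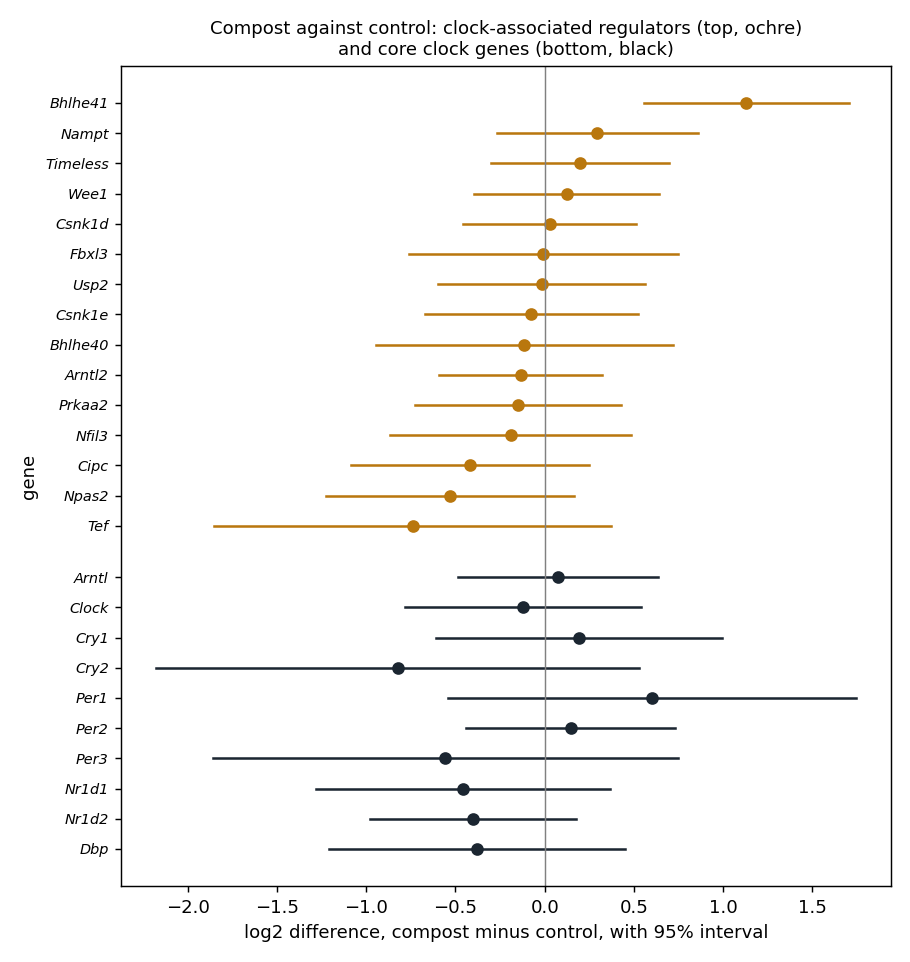
Log2 difference of compost minus control (horizontal axis) with its 95% interval from the limma model for 15 clock-associated regulators (top) and the 10 core clock genes (bottom). The interval of every core clock gene spans 0, and that of Bhlhe41, from 0.55 to 1.71, does not, before adjustment over all probes.

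The precision of the comparison was limited by the number of arrays. Among the 10 clock genes the 95% interval reached 0.56 log2 units to either side of the estimate for Arntl, the narrowest, and 1.35 for Cry2, the widest. Of 7 listed markers of B and plasma cells, 5 passed the filter on the same arrays, and 3 of these were well above background in every rat. Jchain, 1 of the 3, stood at 3.25 and 2.29 in compost rats 1 and 2, against 1.21 and 1.84 in control rats 1 and 2. Cd79b stood at -1.62 and 0.13, against -3.50 and -2.84, and Mzb1 at 0.51 and -0.69, against -2.14 and -1.41. Ms4a1 passed the filter through the compost rats alone. None of the markers passed the test (0 at adjusted p under 0.05 in limma). The part of these cell types in the values of the clock genes was not tested.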

How the data were processed

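The authors' scanner files hold the processed intensity of each spot from Agilent Feature Extraction, version 9.1.3.1, per the file headers: background-subtracted, detrended, linear, with no scaling across arrays. The authors' deposited value table holds the same intensity to within 0.497%, with column medians of 102 and 73.9 for compost and 80.2 and 79.4 for control, so its scale and direction are known and it is not centred. After outlier spots were dropped, log2 intensities were averaged per probe and set against the 75th percentile of the 41012 gene probes of their array. A probe was kept where 2 or more arrays had it well above background, which gave 28417 probes. The test was limma 3.58.1 (R 4.3.3; lmFit, eBayes, two-sided). Its p-values were adjusted by Benjamini and Hochberg's method across the kept probes, and 0.05 was the threshold, after the same code was tested on simulated data. Every difference is compost minus control, and a gene is represented by its brightest kept probe. Old names of other genes were updated through RefSeq's GRCr8 table (10835 probes by accession, 5201 by symbol, 3488 by synonym, 21488 unmatched). All arrays shared 1 slide and 1 scan, so no batch was fitted, and the place of an array on the slide cannot be told apart from its group. P-values measure the spread between these rats together with that of their arrays, since each rat had 1 array. In limma the variance of each probe is also drawn toward that of all kept probes. The members and lists were chosen with earlier results of these data known. All 10 members were named, with up to 4 genes per list by smallest unadjusted p, the Ror, Tef, Hlf and Nfil3 genes, and the 5 genes nearest in pattern to Dbp and to Arntl. Bhlhe40 and Slc2a2 lie outside that rule and were named after their values were seen. Alternatives covered the background correction, scaling, filter, value table, variance model, replicate block and each array left out.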

Additional observations from a re-analysis of the deposited data

How the results depend on the processing

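No clock gene passed the test under any alternative run (0 of the genes measured in each). Over all probes the count called was 0, against 1 with normexp background correction, where the probe named LOC500183 was called (given after its value was seen), and 0 to 2 without 1 array, where both calls were made without control replicate 2 (Gzmb and a probe named BI395793, likewise given after their values were seen). Clock genes whose groups did not overlap numbered 2, against 27.9% of all probes, and 5 to 7 without 1 array, since 3 arrays separate more readily. With normexp the count was 3, with Cry2 added. The share of all probes was not computed without 1 array or with normexp, so these counts are no result about the clock genes. Single gene differences kept their direction in 58 of 58 values under the 6 settings that kept all arrays. Among those settings, the filters and the replicate block cannot change a difference of group means, and the deposited table holds nearly the same intensities. Only normexp background correction and quantile scaling could readily have turned a direction. Without 1 array the direction was kept in 35 of 40 values. The direction turned in 5: Arntl ran from -0.11 to 0.26, Clock from -0.40 to 0.16, Cry1 from -0.16 to 0.54, Per2 from -0.061 to 0.35 and Per3 from -1.19 to 0.074. The turn came with control rat 2 left out in Arntl and Per3, compost rat 2 in Clock and Cry1, and control rat 1 in Per2. The balance of the branches was -0.22 with Cry1 added to Arntl and Clock. The labels share replicate numbers between groups but name no shared litter or day. Same-numbered rats deviated from their group means with a correlation of -0.04 across probes, and with the replicate block 0 probes were called.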

Other observations

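Genes that respond to glucocorticoids and feeding, the signals that set the intestinal clock, were measured for 9 of 10 list members, and none passed the test (0 at adjusted p under 0.05, 1 at an unadjusted p under 0.05, against 3.21% of all probes). Pck1, a gluconeogenic enzyme, stood at 0.45 and 0.58 in compost rats 1 and 2, against 3.39 and 1.61 in control rats 1 and 2, a log2 difference of -1.98 ± 0.61 (SE of the limma model, adjusted p = 0.9997), and its second probe gave -1.79 ± 0.63. Fkbp5, which is induced by glucocorticoids, stood at 1.66 and 2.10 in the compost rats, against 1.27 and 1.55 in the control rats, a difference of 0.47 ± 0.24, and its other probes gave 0.57 and 0.41. In all 3 probes of Fkbp5 the groups did not overlap and compost was the higher, which held for 12.3% of all probes. The 3 probes read 1 gene on the same arrays and are no independent replicates. Among the 9 genes measured, the compost values were all higher than the control values in 2 and all lower in 2, and the groups overlapped in 5. Of all probes 12.3% were higher and 15.6% lower in this way, 27.9% in either direction. Sgk1, also a glucocorticoid target, had a difference of -0.47 ± 0.32, so the targets did not share a direction. Klf9, another such target, had a difference of 0.26 ± 0.19.

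Intestinal transport genes known to be rhythmic in rodents had negative differences in 6 of 6 cases, with a median of -0.68 against -0.02 over all probes, and none passed the test (0 at adjusted p under 0.05, 0 at an unadjusted p under 0.05, against 3.21% of all probes). The fructose carrier gene Slc2a5 stood at 2.49 and 3.62 in compost rats 1 and 2, against 3.96 and 4.00 in control rats 1 and 2. Its difference was -0.92 ± 0.41. The peptide carrier gene Slc15a1 stood at 6.27 and 6.58 in the compost rats, against 6.92 and 6.69 in the control rats. Slc9a3, a sodium and proton exchanger gene, had a difference of -1.05 ± 0.62 with overlapping groups, and Abcb1a, a drug efflux pump gene, had -0.46 ± 0.28. Slc2a2, a sugar carrier gene, had the widest spread, at -3.01 and 0.05 in the compost rats, against 0.95 and -2.14 in the control rats. Its groups overlapped and its difference was -0.89 ± 1.44. Absorptive enterocyte markers also had negative differences in 5 of 6 cases on the same arrays, with a median of -0.16.

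Among 14772 probes with a current symbol, the centred values over the 4 arrays nearest to those of Dbp belonged to Rps6ka6, Zfp362, Caskin1, Aco1 and Pdgfc, at Euclidean distances of 0.068 to 0.096 log2 units. Of these Aco1 was bright, at 4.20 to 4.99 over the 4 arrays, and the others were dim. Rps6ka6 stood at -5.57 to -4.64 and Zfp362 at -6.20 to -5.38, levels near those of the brightest Per3 probe. Nearest to Arntl were Osbpl8, Nupr2, Fbxw11, Septin9 and Ankrd16, at 0.039 to 0.042. With 4 arrays such likeness is a description only.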
